A study of Mus musculus with 54 samples.

Results

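The comparison described here sets 5 cerebellum libraries labelled Atm at postnatal day 28 (P28) against 5 control libraries of the same age, 10 of the 54 libraries of a mouse series on RNase H2 subunit B and its compound mutants. They were chosen by the Atm genotype alone in their labels, and the compound Rnaseh2b/Atm libraries were not among them. The labels give the first group as Atm with Nes-cre, the second as Control, and the tissue of both as whole cerebellum. RNA was poly-A selected. The labels used here give neither strain, sex nor allele, nor whether controls carried Nes-cre. Nes-cre is a recombinase transgene active in neural progenitors, so that microglia, vessels and meninges are mostly outside the cells it reaches. At the same age 5 libraries labelled Rnaseh2b/Atm (both genes, with Nes-cre) and 5 labelled Rnaseh2b (with Nes-cre) gave a second Atm contrast on another genotype, and 3 Atm and 3 control libraries of total RNA were available from postnatal day 5 (P5). Nothing in the labels says that replicates were separate animals, so p-values measure the spread between these libraries, which may be technical.

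ATM is a kinase that is activated at DNA double-strand breaks and passes the signal to p53, Chk2 and many repair proteins. Its loss in people causes ataxia-telangiectasia, in which the cerebellum degenerates, whereas mice without Atm keep a largely normal cerebellar structure. ATM can also be activated by oxidation, apart from DNA breaks.

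The labelled gene did not separate the groups. Atm transcripts stood at 4.68, 4.85, 4.97, 4.60 and 4.84 log2 CPM (reads scaled to a fixed library size) in Atm libraries 1 to 5, against 4.79, 4.94, 4.82, 4.79 and 4.81 in control libraries 1 to 5. The groups overlapped, with the 2 lowest and the highest value all in Atm libraries. The difference was −0.04 ± 0.07 (log2 fold change, Atm minus control, ± standard error), with an adjusted p of 0.734 (limma, Benjamini-Hochberg). In the compound genotype, Atm ran from 3.97 to 4.10 in Rnaseh2b/Atm libraries, against 4.63 to 4.89 in Rnaseh2b libraries, a difference of −0.66 ± 0.07 (limma, adjusted p = 1.46e-07). In that contrast 24.6% of all genes tested fell. Of 29 tested genes of ATM signalling and the double-strand break response, 13 fell there and 3 rose. The difference between both Atm contrasts was itself called, at −0.62 ± 0.09 (limma, adjusted p = 4.85e-05), as it was for 37.7% of all genes tested. The labels give no allele, and why the gene total did not differ was not tested. The genotype of the 5 libraries therefore rests on their labels, and they are called libraries labelled Atm, or Atm libraries for short. Rnaseh2b stood at 2.08, 2.77, 2.59, 2.59 and 2.87 log2 CPM in Atm libraries, against 2.85, 2.97, 2.74, 2.78 and 2.86 in control libraries, above the 0.94 to 1.33 of Rnaseh2b libraries in every case. Npat, which shares a promoter region with Atm and is read in the other direction, differed by 0.22 ± 0.10 (limma, adjusted p = 0.287).

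**Figure D1:**
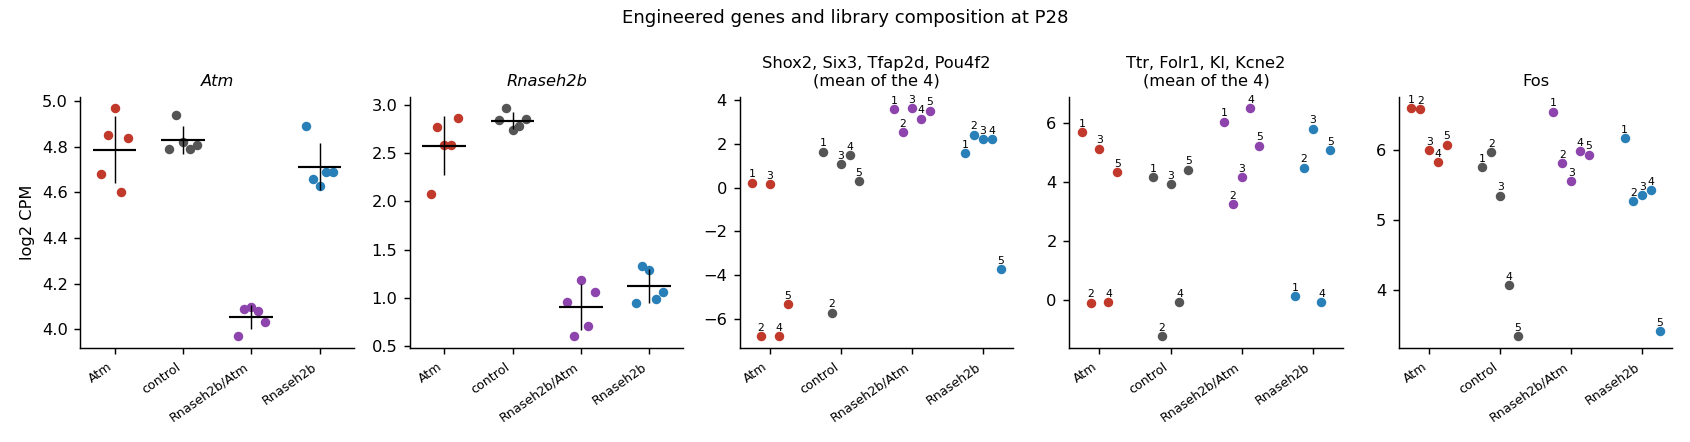
Log2 CPM per library at P28 in the 4 groups, with group mean and SD bars for Atm and Rnaseh2b, and with library numbers for the mean of 4 midbrain or forebrain genes, the mean of 4 choroid plexus genes, and Fos. Atm is low only in Rnaseh2b/Atm libraries (3.97 to 4.10), and control 2 lies with Atm 2, 4 and 5 in the midbrain or forebrain genes.

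Libraries differed in composition within both groups. Depth in genes was 27.4 M to 67.1 M reads for Atm and 31.5 M to 85.4 M reads for control libraries. Markers of Purkinje cells and granule neurons were high in all 10 libraries (Itpr1 11.4 to 11.7 log2 CPM in Atm and 11.4 to 11.7 in control, Gabra6 9.27 to 9.82 in Atm and 9.09 to 9.59 in control). The mean of Shox2, Six3, Tfap2d and Pou4f2, transcription factor genes of midbrain or forebrain that were picked here after their values were seen, was 0.22, −6.79, 0.16, −6.79 and −5.34 log2 CPM in Atm libraries, against 1.65, −5.73, 1.08, 1.48 and 0.29 in control libraries, where −6.79 stands for 0 reads. Atm 2, 4 and 5 and control 2 were thus at or near 0, and the other 6 libraries were not. The choroid plexus mean (Ttr, Folr1, Kl and Kcne2) was near or below 0 in Atm 2 and 4 and in controls 2 and 4, and between 3.92 and 5.68 in the other 6. Fos, a gene induced by neuronal activity, was 5.83 to 6.60 in Atm libraries, against 5.75, 5.97, 5.35, 4.08 and 3.34 in control libraries, so controls 4 and 5 stood apart. Xist was high in Atm 3 and in controls 1 and 2 and low in the other 7 libraries. Results were also computed without some of these libraries and with these means as covariates, settings chosen after the data were seen.

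In a fit of all 20 P28 libraries, 308 of 16530 tested genes were called between Atm and control at an adjusted p below 0.05, a background of 1.86%. Of these 156 rose (0.944%) and 152 fell (0.92%) in libraries labelled Atm. Changes were modest, with a median absolute log2 fold change of 0.62, 83 genes changing by at least 1 and 117 by less than 0.5. The median over all genes tested was −0.003. With only the 10 Atm and control libraries in the fit, 194 genes were called, 109 higher and 85 lower, of which 165 were among the 308. In 247 of the 308 genes the Atm and control libraries did not overlap, against 3.73% of all genes tested (1.8% with Atm higher and 1.92% with Atm lower). The 308 were picked by p on these same libraries, so this count is a description and no separate support. Leaving out control 2 gave 1102 calls and leaving out Atm 3 gave 619, while 199 were left without control 1, 185 without control 4, 203 without Atm 4 and 140 without controls 4 and 5. It was 156 with the midbrain or forebrain mean as a covariate, 146 of them among the 308, and 475 with the choroid plexus mean, which kept all 308.

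**Figure D2:**
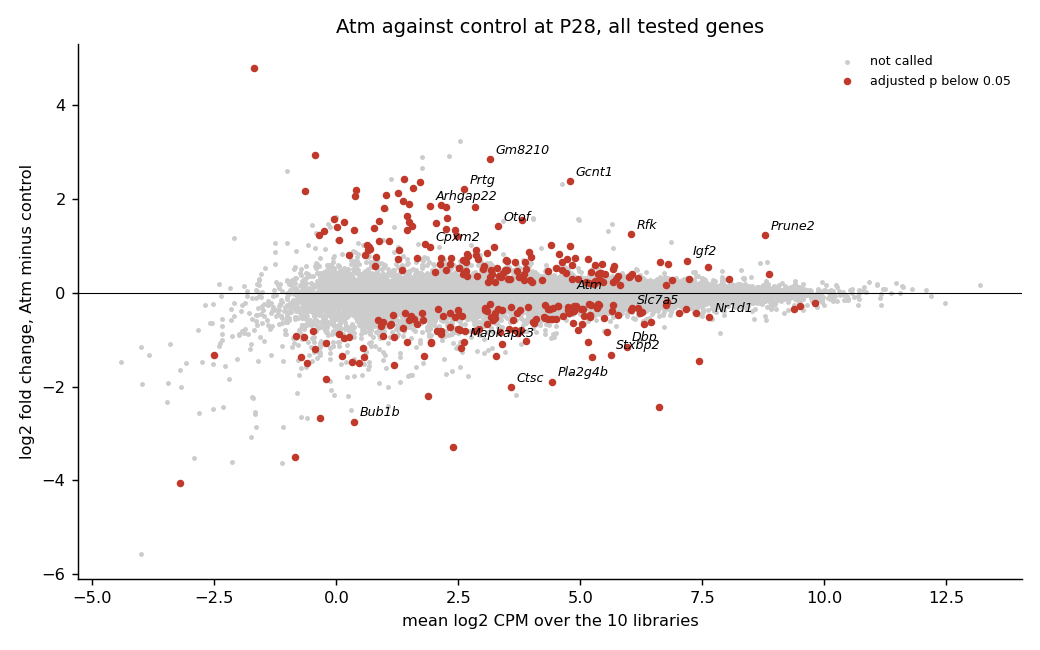
Log2 fold change (Atm minus control) against mean log2 CPM over the 10 libraries for all tested genes, with the 308 called genes in red. Called genes are spread over both directions, and Prune2 and Gcnt1 lie above the rest at their levels.

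The clearest rise was of genes that lie side by side. Prune2, which encodes a BCH-domain protein made in brain, had 9.56, 9.15, 8.97, 9.71 and 9.57 log2 CPM in Atm libraries, against 8.10, 8.40, 8.12, 8.10 and 8.11 in control libraries. Its neighbour Gcnt1, an enzyme that branches the sugar chains of mucin-type glycoproteins, had 6.29, 5.81, 5.24, 6.59 and 5.96 in Atm libraries, against 3.55, 4.31, 3.72, 3.28 and 3.13 in control libraries. Rfk, the kinase that turns riboflavin into FMN, had 6.90, 6.43, 6.07, 7.11 and 6.78 in Atm libraries, against 5.41, 5.72, 5.29, 5.34 and 5.29 in control libraries. Every Atm library lay above every control library in all 3 genes, with Atm 3 the lowest of the Atm libraries and control 2 the highest of the controls. Gcnt1 rose by 2.38 ± 0.29 (limma, adjusted p = 0.000108), a 5.2-fold change of the means, Rfk by 1.25 ± 0.14 (adjusted p = 5.46e-05) and Prune2 by 1.23 ± 0.15 (adjusted p = 0.000108). All 3 kept their call in each of 25 alternative settings, with log2 fold changes between 1.95 and 2.79 for Gcnt1, 1.11 and 1.5 for Rfk, and 1.12 and 1.39 for Prune2.

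In the order of tested genes on chromosome 19, taken from a RefSeq gene table of another build than the files' mm9, the 9 genes from Prune2 on through Gcnt1, Rfk, Pcsk5, Ostf1, 2410127L17Rik, D030056L22Rik, Trpm6 and Rorb were all called higher. The gene just before Prune2, Vps13a, stood at −0.11 and was not called. Farther on, 1110059E24Rik rose by 0.66 ± 0.09 and Gm6563 by 0.49 ± 0.11, which makes 11 of 23 tested genes of the stretch. The 11 fold changes ran from 0.49 to 2.38. Pcsk5, a protease that cuts precursors of secreted proteins, rose by 1.21 ± 0.15 (limma, adjusted p = 0.000108), and Trpm6, a magnesium channel fused to a kinase, by 0.91 ± 0.16 (adjusted p = 0.0038). Rorb, a nuclear receptor, rose by 0.97 ± 0.19, but its Atm and control libraries overlapped, and its adjusted p was 0.0613 with the midbrain or forebrain covariate and 0.111 without controls 4 and 5. Gm6563 lost its call without Atm 1 or Atm 4. The stretch was found by looking for runs of called genes, so its count, beside the 0.944% of all genes that rose, is a description.

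When both genotypes carried the Rnaseh2b label, 4 of the 11 genes rose (Rfk, Pcsk5, Rorb and 1110059E24Rik) and Prune2 fell, where 24.9% of all genes rose and 24.6% fell. Gcnt1 had 3.96, 4.95, 3.86, 4.89 and 3.33 log2 CPM in Rnaseh2b/Atm libraries, against 4.24, 4.26, 3.95, 3.94 and 4.05 in Rnaseh2b libraries, below every Atm library (5.24 to 6.59). Prune2 ran from 7.26 to 8.10 in Rnaseh2b/Atm libraries, against 8.07 to 8.22 in Rnaseh2b libraries. The Atm effect on Gcnt1 with the Rnaseh2b label minus that without it was −2.27 ± 0.41 (limma, adjusted p = 0.000286), and that on Prune2 −1.71 ± 0.21 (adjusted p = 7.85e-06). Such a difference was called for 8 of the 11 genes, while 37.7% of all genes tested had one. It contains the Atm minus control values by which the 11 were picked, so this count is a description. The difference was not called for Rorb, which rose by 1.21 ± 0.19 in Rnaseh2b/Atm as well. At P5 the 11 fold changes lay between −0.26 and 0.63, and none was called.

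**Figure D3:**
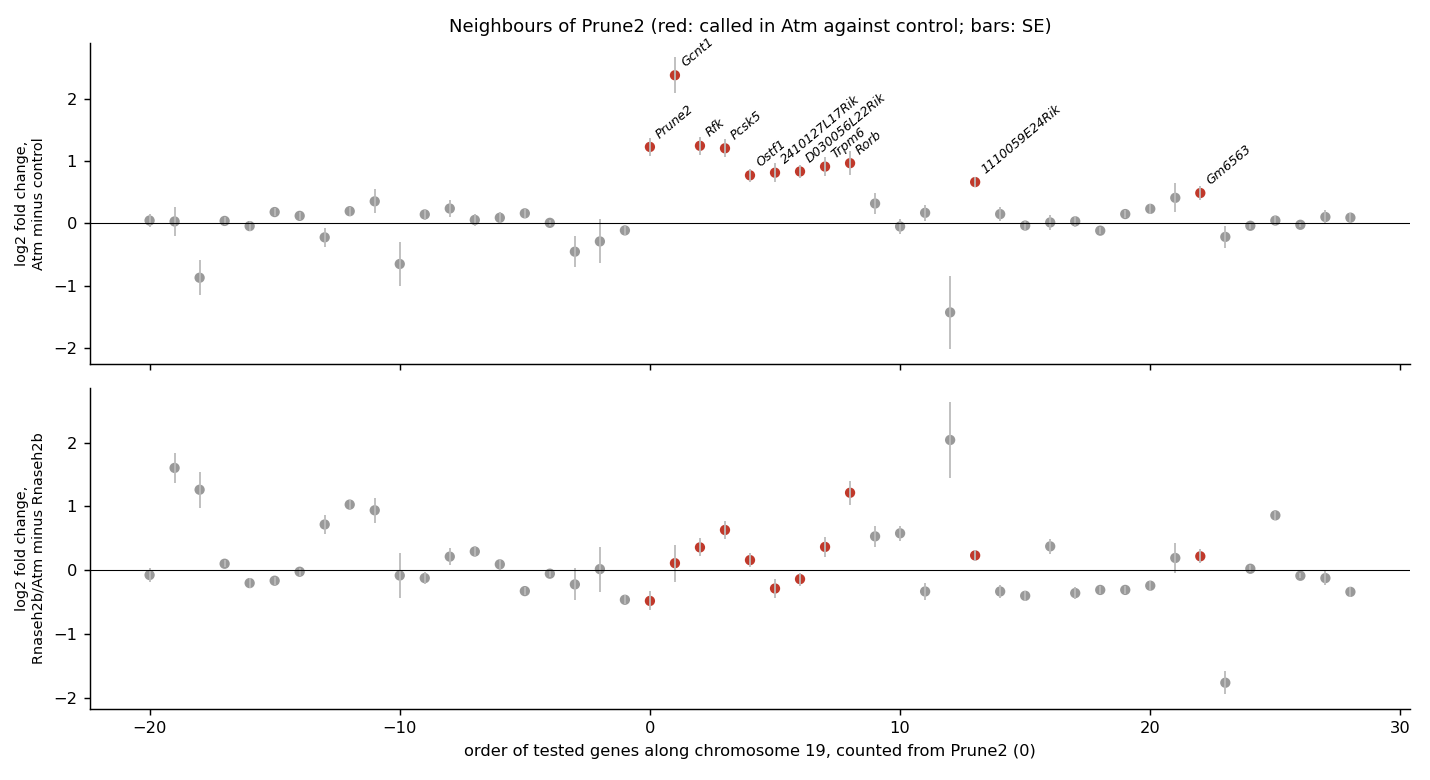
Log2 fold change with standard error for tested genes in their order on chromosome 19, counted from Prune2, for Atm minus control above and Rnaseh2b/Atm minus Rnaseh2b below. Red points are genes called in Atm against control, and the 9 genes from Prune2 to Rorb are all above 0 in the upper panel.

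On chromosome 8 a run of genes fell instead. Stxbp2, a partner of syntaxins in vesicle release, had 4.91, 4.90, 4.93, 4.94 and 5.13 log2 CPM in Atm libraries, against 6.42, 6.42, 6.42, 6.32 and 5.86 in control libraries. The groups did not overlap, and Atm 5 and control 5 were the closest to each other. Stxbp2 fell by 1.33 ± 0.12 on the log2 scale (limma, adjusted p = 3.3e-06), and by 1.95 ± 0.12 in Rnaseh2b/Atm against Rnaseh2b. Between Mcoln1 and Timm44, 7 of 21 tested genes were called, and all 7 fell, against 0.92% of all genes tested. This stretch was found by the same search for runs of called genes, so its count is a description. Mcoln1, a lysosomal cation channel, fell by 0.42 ± 0.05 (limma, adjusted p = 0.000108), and Timm44, part of the mitochondrial import motor, by 0.33 ± 0.05 (adjusted p = 0.00107). Snapc2, Map2k7 and Trappc5 fell by 0.44 ± 0.08, 0.44 ± 0.07 and 0.54 ± 0.11. The model gene Gm14378 fell by 2.20 ± 0.18. All 7 also fell in Rnaseh2b/Atm, where 24.6% of all genes fell, with differences between −2.69 and −0.23. At P5, 6 of the 7 were tested and stood between −0.07 and 0.14.

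Calls were not spread evenly over the chromosomes. Chromosome 14 had 33 of 564 tested genes called (5.85%), chromosome 9 39 of 874 (4.46%) and chromosome 19 16 of 510 (3.14%), while chromosome 16 had 0 of 494. Much of chromosome 14 came from 1 stretch, Gm2897 to Rpp14, where 17 of 28 tested genes were called, 14 of them model genes of near-identical sequence whose reads may be shared, so that single values there are uncertain. The 16 genes that rose there did so by 0.42 to 2.95. That stretch came from the same search for runs of called genes, so its count is a description. Around Atm itself, none of 24 tested genes among the 25 annotated on each side was called, and their log2 fold changes ran from −0.45 to 0.39 with a median of 0.02. That count was 3 without control 2 and 1 without Atm 3.

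Several genes outside the runs on chromosomes 19 and 8 were higher in every Atm library than in any control. Prtg, a protogenin receptor of the immunoglobulin superfamily known from the embryonic nervous system, had 3.91, 3.96, 3.36, 3.76 and 3.62 log2 CPM in Atm libraries, against 1.12, 1.38, 1.04, 1.18 and 2.81 in control libraries. Otof, the calcium sensor of vesicle fusion in inner ear hair cells, had 4.14, 4.14, 4.05, 3.41 and 4.36 in Atm libraries, against 2.88, 2.36, 2.55, 2.69 and 2.53 in control libraries. Cpxm2, a member of the metallocarboxypeptidase family, had 2.44, 2.32, 2.62, 2.25 and 2.40 in Atm libraries, against 1.43, 1.19, 1.53, 1.56 and 1.41 in control libraries. None of the 3 overlapped, though control 5 stood close to the Atm libraries in Prtg and far from the other controls. Prtg rose by 2.22 ± 0.36 (limma, adjusted p = 0.00211), Otof by 1.42 ± 0.31 (adjusted p = 0.0187) and Cpxm2 by 0.98 ± 0.11 (adjusted p = 5.46e-05). Arhgap22, a GTPase-activating protein of Rac, rose by 1.86 ± 0.29, and Fgf7, a growth factor for epithelia, by 0.87 ± 0.18. Zmynd10, needed to assemble the dynein arms of cilia, rose by 0.92 ± 0.17, and the zinc finger genes Zfp960 and Zfp97 by 1.34 ± 0.21 and 1.11 ± 0.18. Arhgap22 on chromosome 14, and Zfp960 and Zfp97, next to each other on chromosome 17, lie in shorter runs found by the same search, each with 4 of 14 tested genes called. Otof lost its call without Atm 5 (adjusted p = 0.0536), and Fgf7 without Atm 4 or control 1 (0.0503 and 0.0521) and with the midbrain or forebrain covariate (0.102).

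Other genes fell. Pla2g4b, a cytosolic phospholipase A2, had 3.4, 3.45, 3.43, 3.56 and 3.53 log2 CPM in Atm libraries, against 5.07, 5.15, 5.78, 5.77 and 5.09 in control libraries. Mapkapk3, a kinase downstream of p38, had 2.11, 1.98, 2.13, 2.14 and 2.11 in Atm libraries, against 3.12, 3.20, 3.20, 3.07 and 3.15 in control libraries. Both groups were tight in Mapkapk3 and clearly apart in both genes. Pla2g4b fell by 1.90 ± 0.23 (limma, adjusted p = 0.000108) and Mapkapk3 by 1.05 ± 0.10 (adjusted p = 3.3e-06), and both fell in Rnaseh2b/Atm too, by 2.13 ± 0.23 and 0.47 ± 0.10. On the log2 scale of FPKM plus 1, which shrinks low genes, Mapkapk3 stood at −0.55 and Cpxm2 at 0.45, both still called. Ctsc, the lysosomal protease cathepsin C, had 3.03, 2.32, 2.51, 2.61 and 2.36 in Atm libraries, against 5.06, 5.37, 5.11, 4.74 and 2.62 in control libraries, so control 5 lay among the Atm libraries. Its fall of 2.01 ± 0.49 (limma, adjusted p = 0.0345) was lost when any of 7 libraries was left out (Atm 1, 2, 4 or 5 or control 1, 3 or 4, adjusted p = 0.0519 to 0.0984). Eps8l1, an actin regulator, showed control 5 at the Atm level as well (2.65, against 3.94 to 4.42 in the other controls) and fell by 1.36 ± 0.29, a call lost without Atm 4, control 1 or control 3 (adjusted p = 0.0545 to 0.0558).

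Further falls were those of Gng4, a G protein gamma subunit (−1.34 ± 0.24), Mid1, a ubiquitin ligase of microtubules (−1.09 ± 0.24), Tnni3, the cardiac troponin I (−0.94 ± 0.16), Filip1, a filamin-binding protein (−0.88 ± 0.11), Mybpc1, a myosin-binding protein (−0.84 ± 0.17), Layn, a hyaluronan receptor (−0.81 ± 0.14), and Ky, a muscle protease (−0.81 ± 0.18). Mid1 lost its call without control 4 or 5 (adjusted p = 0.0563 and 0.0592) and Ky without Atm 1, 4 or 5 or control 1 or 4 (0.0566 to 0.0625). Among models and pseudogenes, whose reads may come from near-identical genes, Gm8210 rose by 2.84 ± 0.30, Rpl15-ps2 by 2.42 ± 0.46 and BY080835 by 2.36 ± 0.20. Gm15487 fell by 2.44 ± 0.53, without a call when Atm 5, control 4 or control 5 was left out (adjusted p = 0.0507 to 0.0619), and Gm6166 by 3.30 ± 0.81, without a call in 7 of the 10 cases (all but Atm 3, control 2 and control 4, adjusted p = 0.0729 to 0.12).

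Of 69 called genes named here, 26 lost their call without controls 4 and 5 together (adjusted p = 0.0519 to 0.37), 26 with the midbrain or forebrain covariate (0.0513 to 0.27) and 17 when only Atm and control libraries were fitted (0.0543 to 0.145). Beside genes already described as losing a call, the first setting ended, among others, those of 2410127L17Rik, Rpl15-ps2, Zmynd10, Layn, Mybpc1, Trappc5, Car9, Cybrd1, Col3a1, Sfrp1 and Otof. It also ended those of Aqp4, Gja1, P2ry12, Prom2, Kif17, Fosl2, Prc1, Pcna and Bub1b. The second ended, among others, those of Trappc5, P2ry12, Sfrp1, Bhlhe40, Bhlhe41, Arntl, Gm129, Per3, Aqp4, Gja1 and Col3a1. Prom2, Kif17, Fosl2, Prc1, Pcna and Bub1b lost theirs with it too. The third ended those of 2410127L17Rik, Rorb, Tnfrsf10b, Cybrd1, Trappc5, P2ry12, Per3, Gja1, Kif17, Prc1, Fosl2 and Pcna.

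The gene list with the highest share of calls was that of the circadian clock. The clock is a loop in which Clock and Arntl (BMAL1) switch on Per, Cry, Nr1d1, Dbp, Ciart and Bhlhe genes through a DNA element called the E-box, and the products of these genes act back on the loop. Nr1d1 represses Arntl and Nfil3, and Dbp and Nfil3 compete for the D-box, as activator and repressor. Of 18 tested clock genes 8 were called (44.4%, against 1.86% of all genes), 6 lower and 2 higher, and the median over the list was −0.19. The list was chosen with earlier results of these data known, so that its count is a description.

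To place the E-box and D-box in these genes, promoters from 250 bases before to 50 after the start were read from a RefSeq table (build GRCm38.p6), which held 15 of the 18 genes. CACGTG (E-box), TTATGTAA (D-box) and AGGTCA (core of the element bound by Nr1d1 and the ROR receptors) were searched on both strands and are shown in capitals for the called genes that hold one; TGACCT is AGGTCA on the other strand.
Ciart (Gm129), chr3:95882179-95882478, minus strand: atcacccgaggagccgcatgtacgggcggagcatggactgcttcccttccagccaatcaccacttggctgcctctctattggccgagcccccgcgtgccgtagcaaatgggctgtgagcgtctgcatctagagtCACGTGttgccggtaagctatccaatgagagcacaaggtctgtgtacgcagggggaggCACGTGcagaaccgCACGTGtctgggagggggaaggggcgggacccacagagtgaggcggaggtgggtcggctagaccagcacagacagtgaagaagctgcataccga
Bhlhe41, chr6:145865371-145865670, minus strand: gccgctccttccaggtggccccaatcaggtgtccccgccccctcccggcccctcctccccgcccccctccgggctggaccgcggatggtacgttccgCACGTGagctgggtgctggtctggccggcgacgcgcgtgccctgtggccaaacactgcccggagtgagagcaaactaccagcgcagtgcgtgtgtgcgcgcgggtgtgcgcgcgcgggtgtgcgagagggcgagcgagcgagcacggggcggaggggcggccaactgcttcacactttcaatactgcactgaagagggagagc
Per3, chr4:151044616-151044915, minus strand: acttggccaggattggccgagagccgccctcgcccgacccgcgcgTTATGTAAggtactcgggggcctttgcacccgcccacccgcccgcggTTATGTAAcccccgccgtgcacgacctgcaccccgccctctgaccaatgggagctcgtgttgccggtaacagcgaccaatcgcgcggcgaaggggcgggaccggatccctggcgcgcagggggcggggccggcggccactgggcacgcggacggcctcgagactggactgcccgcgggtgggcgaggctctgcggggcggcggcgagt
Nfil3, chr13:52980990-52981289, minus strand: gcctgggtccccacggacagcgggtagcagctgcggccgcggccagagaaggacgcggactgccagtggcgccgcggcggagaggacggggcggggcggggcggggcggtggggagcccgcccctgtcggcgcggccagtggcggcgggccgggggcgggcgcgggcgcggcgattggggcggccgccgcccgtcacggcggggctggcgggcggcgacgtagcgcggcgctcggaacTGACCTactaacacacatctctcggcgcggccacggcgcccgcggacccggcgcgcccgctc
Ciart held 3 E-boxes, Bhlhe41 1 E-box, Per3 2 D-boxes and Nfil3 1 AGGTCA. Among all 27025 promoters of the table, 7.24% held an E-box, 0.955% a D-box and 16.0% AGGTCA. An E-box was in 2 of 5 genes called lower, 0 of 2 called higher and 3 of 8 not called. The windows of Dbp, Nr1d1 and Arntl held none of the 3 motifs, which says only that these letters are not in that window.

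Dbp, an activator at the D-box whose transcript is among the most rhythmic of the clock outputs, had 5.41, 5.31, 5.68, 4.84 and 5.63 log2 CPM in Atm libraries, against 6.86, 6.49, 6.84, 6.17 and 6.25 in control libraries. Nr1d1 (REV-ERB alpha) had 7.32, 7.41, 7.46, 7.07 and 7.59 in Atm libraries, against 8.0, 7.91, 8.01, 7.77 and 7.77 in control libraries. Nfil3 had 4.26, 4.10, 4.09, 4.49 and 4.04 in Atm libraries, against 3.59, 3.80, 3.50, 3.43 and 3.35 in control libraries. The groups did not overlap in any of the 3, and Atm 4 was lowest in Dbp and Nr1d1 and highest in Nfil3. Dbp fell by 1.15 ± 0.17 (limma, adjusted p = 0.00102), Nr1d1 by 0.52 ± 0.10 (adjusted p = 0.0064), and Nfil3 rose by 0.66 ± 0.11 (adjusted p = 0.00332). These 3 kept their call in each of 25 alternative settings, with a highest adjusted p of 0.00847, 0.0416 and 0.0491.

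Arntl, the BMAL1 gene, had 5.98, 5.92, 5.92, 6.12 and 5.86 log2 CPM in Atm libraries, against 5.14, 5.34, 5.13, 5.71 and 5.65 in control libraries, and rose by 0.57 ± 0.14 (limma, adjusted p = 0.0334). Gm129, the older symbol of Ciart, a repressor of the loop, had 3.25, 3.05, 3.29, 3.33 and 3.54 in Atm libraries, against 4.41, 4.31, 4.43, 3.71 and 3.88 in control libraries, and fell by 0.86 ± 0.19 (adjusted p = 0.0196). In both genes controls 4 and 5 were the nearest to the Atm libraries, though still apart from them. The repressors Bhlhe41 and Bhlhe40 fell by 0.51 ± 0.10 and 0.47 ± 0.11, and Per3, a period gene, by 0.42 ± 0.10. Per1 had 7.27, 7.15, 7.0, 6.88 and 7.12 in Atm libraries, against 6.98, 7.47, 7.54, 6.04 and 6.36 in control libraries, and Per2 4.31 to 5.04 in Atm libraries, against 4.70 to 5.99 in control libraries. Both groups overlapped and neither gene was called, with differences of 0.20 ± 0.29 and −0.70 ± 0.29 (limma, adjusted p = 0.704 and 0.229). Clock (0.23 ± 0.07), Npas2 (0.53 ± 0.19), Cry1 (0.40 ± 0.12) and Tef (−0.30 ± 0.12) were not called either (adjusted p = 0.0946, 0.165, 0.111 and 0.213).

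Controls 4 and 5, which had low Fos, also had low Per1, and without both of them the same 8 clock genes were called, 6 lower and 2 higher. With the midbrain or forebrain mean as a covariate 3 were called, Dbp, Nr1d1 and Nfil3. Leaving out single libraries left 4 calls without control 1 or 3 and 5 without Atm 2 or Atm 4, and gave 10 without control 2. Single calls that were lost were those of Arntl (any of Atm 1, 2, 4 or 5 or control 1 or 3, adjusted p = 0.0536 to 0.108), Per3 (Atm 1, 2 or 4 or control 1, 3 or 4, 0.0578 to 0.103), Bhlhe40 (Atm 4 or 5 or control 1 or 3, 0.0517 to 0.0591) and Gm129 (Atm 2 or control 1 or 3, 0.0548 to 0.0596). The labels give no hour of sampling, so a difference in the hour and one of genotype cannot be told apart. On the Rnaseh2b background, Dbp fell by 1.08 ± 0.17, Gm129 by 0.77 ± 0.19, Nr1d1 by 0.74 ± 0.10 and Per3 by 0.34 ± 0.10, and Nfil3 rose by 0.51 ± 0.11. Bhlhe41 (0.17), Bhlhe40 (0.00) and Arntl (0.13) were not called there, and among the 8 genes the difference between both Atm effects was called for Bhlhe41 (0.68 ± 0.14) and Bhlhe40 (0.48 ± 0.15). At P5 the 8 genes lay between −0.11 and 0.16, with none called.

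**Figure D4:**
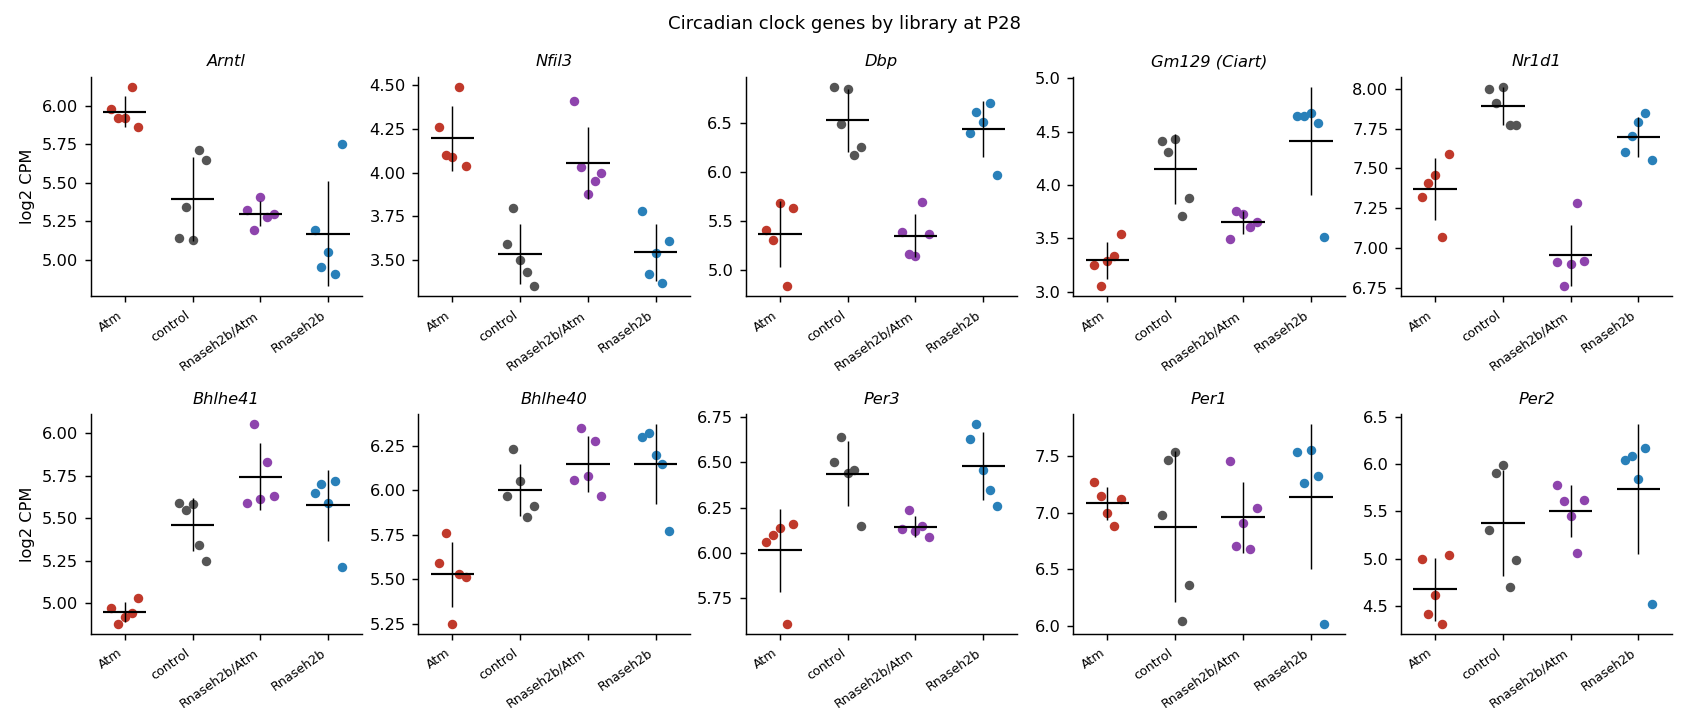
Log2 CPM of 10 clock genes in each P28 library of the 4 groups, with group mean and SD. Dbp and Nr1d1 are lower and Nfil3 higher in Atm than in control and in Rnaseh2b/Atm than in Rnaseh2b, while Per1 and Per2 overlap.

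Lists tied to ATM itself showed few calls or none. None of 29 genes of ATM signalling and the double-strand break response, 14 strand-break repair genes of inherited ataxias or 35 interferon-stimulated genes was called, with medians of 0.05, 0.07 and −0.09. In Rnaseh2b/Atm against Rnaseh2b, 26 of the same 35 interferon-stimulated genes rose and 1 fell (background 24.9% and 24.6% of all genes), with a median of 0.96. The difference between the Atm effects was called for 19 of the 35, against 37.7% of all genes. Of 36 p53 targets 1 was called, Tnfrsf10b, the death receptor DR5, which had 0.38, 1.06, 1.56, 1.44 and 1.38 log2 CPM in Atm libraries, against 0.13, 0.49, 0.14, 0.00 and 0.40 in control libraries. Only Atm 1 overlapped with the controls. Tnfrsf10b rose by 0.93 ± 0.18 (limma, adjusted p = 0.00694). Cdkn1a, the p21 gene, had 4.97, 4.93, 4.88, 5.03 and 4.89 in Atm libraries, against 4.21, 4.56, 4.17, 4.78 and 4.70 in control libraries. The groups did not overlap, but the difference of 0.46 ± 0.14 missed the threshold (adjusted p = 0.115).

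Neuronal lists showed no call. None of 20 Purkinje cell genes, 20 granule neuron genes, 23 spinocerebellar ataxia genes, 13 inhibitory interneuron genes, 26 GABA-A and glutamate receptor subunits or 17 myelin genes was called, with medians of −0.01, 0.02, −0.00, −0.00, −0.02 and 0.11. Itpr1, the calcium release channel of Purkinje cells, differed by −0.00 ± 0.08, and Cbln3, a granule neuron gene, by 0.07 ± 0.17. All 20 granule neuron genes fell in Rnaseh2b/Atm against Rnaseh2b, where 24.6% of all genes did, with a median of −1.37. The difference between the Atm effects was called for 19 of them, against 37.7% of all genes. In bulk tissue, fewer cells of a type and less RNA per cell cannot be told apart.

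Among glial genes, 3 of 16 of the astrocyte and Bergmann glia list rose (18.8%, against 0.944% of all genes). Only 6 of the 16 were higher in Atm at all, and the list median was −0.01. Gdf10, a growth factor of Bergmann glia, stood at 6.76 to 7.35 log2 CPM in Atm libraries, against 7.40 to 7.62 in control libraries, without overlap, and at −0.35 ± 0.12 it missed the threshold (limma, adjusted p = 0.156). Fabp7, a fatty acid-binding protein of Bergmann glia, had 6.90, 6.91, 7.16, 6.91 and 6.95 log2 CPM in Atm libraries, against 6.33, 6.18, 6.33, 6.41 and 6.28 in control libraries. The groups did not overlap, with Atm 3 above the other Atm libraries. Fabp7 rose by 0.66 ± 0.12 (limma, adjusted p = 0.00425), Aqp4, the water channel of astrocyte endfeet, by 0.40 ± 0.08 (adjusted p = 0.0151) and Gja1, connexin 43, by 0.29 ± 0.07 (adjusted p = 0.0289). Aqp4 lost its call without control 4 (adjusted p = 0.0522), Gja1 without any of Atm 1, 2 or 4 or control 1, 3, 4 or 5 (0.0577 to 0.0888), and both with the midbrain or forebrain covariate. P2ry12, a receptor of resting microglia, rose by 0.40 ± 0.09 (adjusted p = 0.0215), the only call among 20 homeostatic microglia genes, and lost it without Atm 2 or 4 or control 1 or 4 (0.0548 to 0.063). Of the 20 genes, 7 were higher in Atm and the median was −0.03. Fcrls, another gene of resting microglia, differed by −0.69 ± 0.18 with no overlap between the groups and was not called (limma, adjusted p = 0.0637). The summed level of those 20 genes was 159 to 187 CPM in Atm libraries, against 166 to 183 in control libraries.

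Igf2, an insulin-like growth factor made by meninges and choroid plexus, had 7.61, 7.55, 7.46, 7.55 and 7.44 log2 CPM in Atm libraries, against 6.83, 6.89, 7.03, 6.69 and 6.74 in control libraries. The groups did not overlap. Igf2 rose by 0.68 ± 0.09 (limma, adjusted p = 0.000337) and Col3a1, a fibrillar collagen, by 0.48 ± 0.09 (adjusted p = 0.00696), the called members among 12 meningeal and fibroblast genes. The summed level of the list was 930 to 1151 CPM in Atm libraries, against 718 to 1252 in control libraries, and its part in both rises was not tested. Col3a1 was at an adjusted p of 0.0513 with the midbrain or forebrain covariate. Both genes rose more in Rnaseh2b/Atm against Rnaseh2b, by 1.17 ± 0.09 and 1.64 ± 0.09.

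Cell cycle and stress lists held single calls. Slc7a5, a carrier of large amino acids, had 5.70, 5.93, 5.90, 5.89 and 5.88 log2 CPM in Atm libraries, against 6.22, 6.22, 6.18, 6.25 and 6.23 in control libraries, with no overlap. It fell by 0.36 ± 0.06 (limma, adjusted p = 0.00523), the call among 14 integrated stress and serine genes, and rose by 0.39 ± 0.06 in Rnaseh2b/Atm. Of 12 mitotic genes Prc1, a spindle midzone protein, rose by 0.65 ± 0.16 and Bub1b, a spindle checkpoint kinase, fell by 2.75 ± 0.64. Of 19 DNA replication genes Pcna, the sliding clamp, fell by 0.35 ± 0.09 (adjusted p = 0.0495). Sfrp1, a secreted Wnt inhibitor, rose by 0.82 ± 0.19 among 9 granule progenitor genes, and Fosl2, an AP-1 subunit, by 1.02 ± 0.25 among 19 immediate early genes, with its lowest values in controls 4 and 5 (3.37 and 3.18), where Fos was low as well. These 5 calls were the least stable, each lost without some libraries. Prc1 and Fosl2 lost theirs without any library but Atm 3 and control 2 (adjusted p = 0.0711 to 0.116 and 0.0577 to 0.131). Pcna lost its call without Atm 2, 4 or 5 or control 1, 3, 4 or 5 (0.0577 to 0.142), Bub1b without Atm 1, 2 or 5 or control 1, 3, 4 or 5 (0.0515 to 0.0909), and Sfrp1 without Atm 1, 2 or 5 or control 4 or 5 (0.0515 to 0.102). No member was called in the lists of mitochondrially encoded genes (13), lysosome and autophagy genes (16), antioxidant genes (16), heat shock genes (16), cholesterol synthesis genes (16), glucocorticoid-responsive genes (12) or choroid plexus genes (13).

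**Figure D5:**
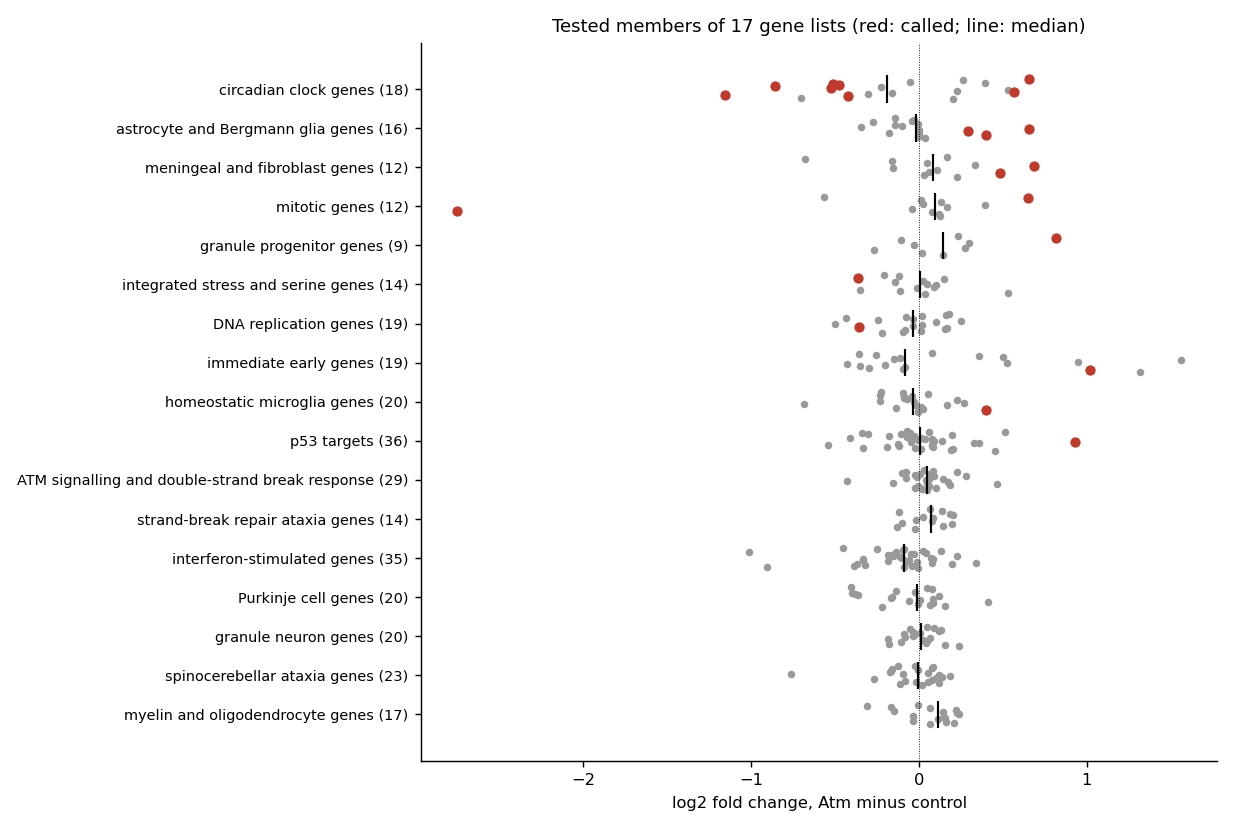
Log2 fold change (Atm minus control) of each tested member of 17 gene lists, with the number of tested members in brackets, called members in red and the list median as a line. The clock list holds 8 called members, the other lists 0 to 3.

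Set beside the Atm contrast on the Rnaseh2b background, which shares no library with this one, 137 of the 308 genes were called in the same direction, 69 higher and 68 lower. That is 44.5% of the 308, in a contrast where 24.9% of all genes were called higher and 24.6% lower. It is also 1.67% of the 8188 genes called in Rnaseh2b/Atm against Rnaseh2b. In either direction 184 of the 308 were called there (59.7%), against 49.5% of all genes. Of these 184, 47 were called in the opposite direction, and 124 of the 308 were not called there. The sign was shared by 202 of the 308 (65.6%), against 50.5% of all genes tested. The difference between both Atm effects was called for 158 of the 308, against 37.7% of all genes tested. It contains the Atm minus control values by which the 308 were picked, so this count is a description. Among called genes with the smallest p for that difference, Car9, a carbonic anhydrase, had 4.45, 4.61, 4.54, 4.48 and 4.72 log2 CPM in Atm libraries, against 5.22, 5.41, 4.81, 5.63 and 5.67 in control libraries, and 1.55 to 2.18 in Rnaseh2b/Atm libraries, against 4.95 to 5.27 in Rnaseh2b libraries. It fell in both contrasts, by 0.79 ± 0.14 and by 3.39 ± 0.14. Others went in opposite directions. Prom2, a prominin, rose by 0.69 ± 0.17 in Atm and fell by 1.95 ± 0.17 in Rnaseh2b/Atm, while Cybrd1, an iron reductase, Cacng4, an AMPA receptor partner, and Kif17, a dendritic kinesin, fell in Atm by 0.68 ± 0.13, 0.50 ± 0.06 and 0.37 ± 0.08 and rose in Rnaseh2b/Atm by 1.70 ± 0.13, 0.60 ± 0.06 and 1.05 ± 0.08. Without Atm 1, 2, 4 or 5 or control 1, 4 or 5 Prom2 lost its call in Atm against control (adjusted p = 0.0596 to 0.121), and without Atm 1, 2 or 4 or control 1, 3 or 4 Kif17 did (0.0523 to 0.0714).

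At P5, where RNA was not poly-A selected and 3 Atm libraries stood against 3 controls, 0 of 15421 genes were called by limma (0%). At an unadjusted p below 0.05 there were 435, and the smallest adjusted p was 0.763. Without P5 control 2 or without P5 control 3, 1 gene was called. Of 277 P28 calls tested at both ages, 133 had the same sign at P5 (48.0%), against 39.4% of all genes. The ages differ in RNA type, so their values stand side by side without a test.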

How the data were processed

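The members compared and all gene lists were chosen with earlier results of these data known. The authors deposited log2 CPM and FPKM tables per age. The submitters' processing notes name limma, HTSeq, BWA, STAR and Trim Galore and build mm9, with neither versions nor the step each tool served. Per the labels' protocols, RNA was extracted with TRIzol and libraries were made with a stranded kit.

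Columns were matched to samples by their labels, with 0 columns left over. At P28 the deposited log2 CPM values gave whole reads for 100% of values (within 0.01), and reads in genes were 27.4 M to 67.1 M in Atm libraries and 31.5 M to 85.4 M in control libraries. At P5, rows that name no gene held 19.7% to 31.7% of the CPM and were left out. Dates stood in place of gene names in 23 rows at P28.

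Genes with at least 1 CPM in at least 5 of 20 libraries (16530 of 19432) were fitted by limma 3.58.1 (R 4.3.3) with a variance trend, all 4 P28 groups together, on the log2 scale as deposited, which understates the change of low genes. P5 was fitted alone (at least 1 CPM in 3 libraries). A gene was called at a Benjamini-Hochberg adjusted p below 0.05, and rose and fell are used of called genes. The deposited FPKM values, as log2 after adding 0.1 or 1, served as a second scale.

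Named genes are the engineered ones, the 15 largest rises and 15 largest falls among called genes averaging 1 log2 CPM or more, up to 6 models or pseudogenes, up to 4 called members of a list (or 2 abundant members where none was called), and up to 6 genes with the smallest p for the difference between both Atm effects. Some results the rule names are not reported here. Gene order came from a RefSeq table that placed 15514 of the tested genes. Other genes (Cdkn1a, Npat, Vps13a, the clock genes beyond 4, members of the 2 stretches, the midbrain or forebrain genes) were named after their values were seen. No 2 of the 10 libraries were copies, with a lowest chi-square per degree of freedom of 10.8. Figures were drawn with matplotlib 3.10.9.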

Additional observations from a re-analysis of the deposited data

Results flagged for a closer look

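In each group of 5 libraries the gap between the highest or lowest value and its nearest neighbour was set against the group's range, for the 72 genes the text follows. A single library stood apart in 20 of 144 cases, where chance gives about 1 in 20. The library Atm 1 stood apart in log2 CPM of Slc7a5 (5.70). The library Atm 2 stood apart in log2 CPM of Mapkapk3 (1.98). The library Atm 3 stood apart in log2 CPM of Mid1 (3.17) and Fabp7 (7.16). The library Atm 4 stood apart in log2 CPM of Per3 (5.61) and Trappc5 (4.71). The library Atm 5 stood apart in log2 CPM of Stxbp2 (5.13). The library control 2 stood apart in log2 CPM of Atm (4.94), Arhgap22 (0.39), Rfk (5.72), Prune2 (8.40), Gm8210 (0.69) and Prc1 (3.98). The library control 3 stood apart in log2 CPM of Mid1 (3.18), Gm6563 (2.49) and Ostf1 (3.38). The library control 5 stood apart in log2 CPM of Prtg (2.81), Ctsc (2.62), Eps8l1 (2.65) and Stxbp2 (5.86). 

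The effect of the Atm label with the Rnaseh2b label minus that without it was called by limma for 39 of these 72 genes, where 37.7% of all genes tested had such a call. This difference contains the Atm minus control values by which 69 of the 72 were called, so the count is a description. On the log2 scale it was below 0 for Atm (−0.62), Gcnt1 (−2.27), Arhgap22 (−1.30), Zfp960 (−1.24), Rfk (−0.89), Prune2 (−1.71), Pcsk5 (−0.58), Zfp97 (−0.90), Cpxm2 (−1.65), Fgf7 (−2.17), Rpl15-ps2 (−2.49), BY080835 (−1.70), Stxbp2 (−0.62), Layn (−0.98), Tnfrsf10b (−0.75), Fabp7 (−0.73), Aqp4 (−0.48), Prc1 (−0.67), Car9 (−2.60), Prom2 (−2.64), 1110059E24Rik (−0.43), 2410127L17Rik (−1.10), D030056L22Rik (−0.98) and Ostf1 (−0.62). It was above 0 for Trp53 (0.21), Gng4 (3.20), Mapkapk3 (0.58), Tnni3 (0.91), Mybpc1 (1.27), Ky (0.86), Gm15487 (2.95), Igf2 (0.49), Col3a1 (1.16), Bhlhe41 (0.68), Slc7a5 (0.75), Cybrd1 (2.38), Cacng4 (1.11), Kif17 (1.43) and Bhlhe40 (0.48).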

How the results depend on the processing

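For 69 called named genes, 1372 values under other settings fixed early kept their direction, 1210 with the call and 162 without, and 40 of the genes kept the call throughout. The log2 fold change of Atm, not called, lay between −0.0882 and 0.0047 when 1 library was left out (0.0047 without Atm 4), that of Trp53 between −0.0051 (without Atm 5) and 0.0536, and that of Trp53 was −0.0014 with the midbrain or forebrain covariate. Of the counts of 308 calls, 8 clock calls and 21 calls in the lists together, only that of all genes moved past 1.5 times with only both groups in the fit (194). With the midbrain or forebrain covariate they were 156, 3 and 7, and with the choroid plexus covariate the first was 475. Without controls 4 and 5 together the first and the last were 140 and 13. Without Atm 3 and controls 1 and 2, the libraries with high Xist, they were 1876, 5 and 70, and 4 genes next to Atm were called. Leaving out 1 library at a time gave 185 to 1102 calls, 4 to 10 clock calls, 11 to 47 list calls and 0 to 3 calls next to Atm. For Rnaseh2b/Atm against Rnaseh2b this gave 7490 to 8343 calls, for the difference 5630 to 6857, and at P5 0 to 1. The cause was not tested. The other alternatives (voom on recovered reads, also with median-of-ratios scaling, a common median, FPKM, other filters, no trend, Xist) stayed within 1.5 times of each count, and 0 genes were called at P5 with the others tried there.

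Replicate numbers did not pair Atm and control libraries: the correlations of same-numbered deviations were 0.19, 0.36, 0.10, −0.09 and 0.26, and 2 of 5 Atm libraries matched their own number best. With the replicate block 306 genes were called, 266 of them among the 308. The planned tests of counts by edgeR were not run, since the deposited unit is log2.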

Other observations

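Runs of called genes like those on chromosomes 19, 8 and 14 were found in 7 further places by the same search, which was made after the data were seen, and none is more than a description. On chromosome 4, 4 of 8 tested genes from Unc13b to Car9 fell, among them Unc13b, a priming factor of synaptic vesicles (−0.34 ± 0.08), and Atp8b5, a phospholipid flippase (−0.95 ± 0.22).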
